A study of Mus musculus with 3 samples.

Results

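Retnla, Mgl2, Clec10a, Ccl24, Mrc1 and Il4ra are genes tied to the response of mouse macrophages to interleukin 4 and interleukin 13, and their transcripts were followed here in immune cells of the mouse heart. These 6 genes, of 32285 in the deposited count tables, were chosen by symbol, each of which matched 1 gene identifier. Low counts of Retnla and Mgl2 after infarction in these same libraries were known when they were chosen, so every difference below is a description. The study sorted CD45+ immune cells from hearts of C57BL/6J mice aged 8 to 9 weeks and profiled them with droplet 3' single-cell RNA sequencing (10x Genomics). There was 1 library in each of 3 groups, named Sham, MI and MI-E in the labels. MI is read here as myocardial infarction, from the title of the series, which is about macrophages that reside for a time in the infarcted heart. The labels do not expand MI-E. The surgery text, ligation of the left anterior descending coronary artery, is attached to all 3 libraries alike, also to Sham. The labels say neither how long after surgery hearts were taken nor how many hearts went into a library.

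Interleukin 4 and interleukin 13 bind receptors that share the chain encoded by Il4ra, and the transcription factor STAT6 carries the signal to the nucleus. In mouse macrophages this induces a set of genes that came to define alternative activation, among them Retnla, Ccl24 and the lectin genes Mgl2, Clec10a and Mrc1. Some of these genes are also carried by resident tissue macrophages, and subsets of dendritic cells are known to carry Mgl2.

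Transcripts were counted as unique molecular identifiers (UMIs). Median UMIs per barcode were 2727 for the 11357 barcodes of Sham, 9604 for the 9095 of MI and 7287 for the 12707 of MI-E. Filters on genes, mitochondrial UMIs and doublets left 10079, 8169 and 11989 cells. Of the deposited barcodes, 26 to 45 were shared by a pair of libraries. The cells fell into 25 clusters, made without the 6 genes or the genes of their pathway, and clusters were named from marker lists. The largest class was monocyte-macrophage-like, with 2385 Sham, 6921 MI and 7029 MI-E cells and median depths of 5412, 10070 and 9606 UMIs. In Sham, cluster 2, led by the resident macrophage markers Lyve1, Timd4 and Vsig4, held 85.6% of the class. In MI the class came from cluster 0 (21.9%, led by Ppbp and Arg1), cluster 7 (16.5%, Ccl8, Igf1 and Trem2), cluster 6 (16.0%, Gpnmb) and cluster 5 (13.1%, Cx3cr1 and Axl). In MI-E it came from cluster 0 (29.5%), the monocyte-like cluster 4 (18.9%, Ly6c2 and Plac8), cluster 5 (13.3%) and cluster 9 (12.5%, Il1b and Csf3). Cluster 8, with 1540 Sham, 36 MI and 25 MI-E cells, scored highest as macrophage but was left unnamed, because its 10 leading genes, Retnla and Mgl2 among them, held 1 dendritic cell marker (Cd83) and 0 macrophage markers. Cluster 11, with 1046 Sham, 12 MI and 15 MI-E cells, was left unnamed because 4 mast cell markers were among its leading genes.

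Within monocyte-macrophage-like cells, 5 of the 6 genes were lower in MI and MI-E than in Sham, and Il4ra was higher. Levels are the gene's UMIs divided by all UMIs of the class in that library, scaled to CPM. Their intervals are exact 95% Poisson intervals and cover nothing but counting error. As each group is 1 library, no difference has a replicate check and no test was made. In bulk sums of this kind, fewer cells with a transcript and less transcript per cell cannot be told apart, and shares of cells are therefore given as well. By the rule of a ratio of at least 1.5 among genes with a mean of at least 5 CPM, 5 of the 6 were lower and 0 higher in MI than in Sham. Over all 8542 measured genes, 21.7% were lower and 21.2% higher. Since this contrast led to the choice of the genes, nothing is read from their count.

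**Figure D1:**
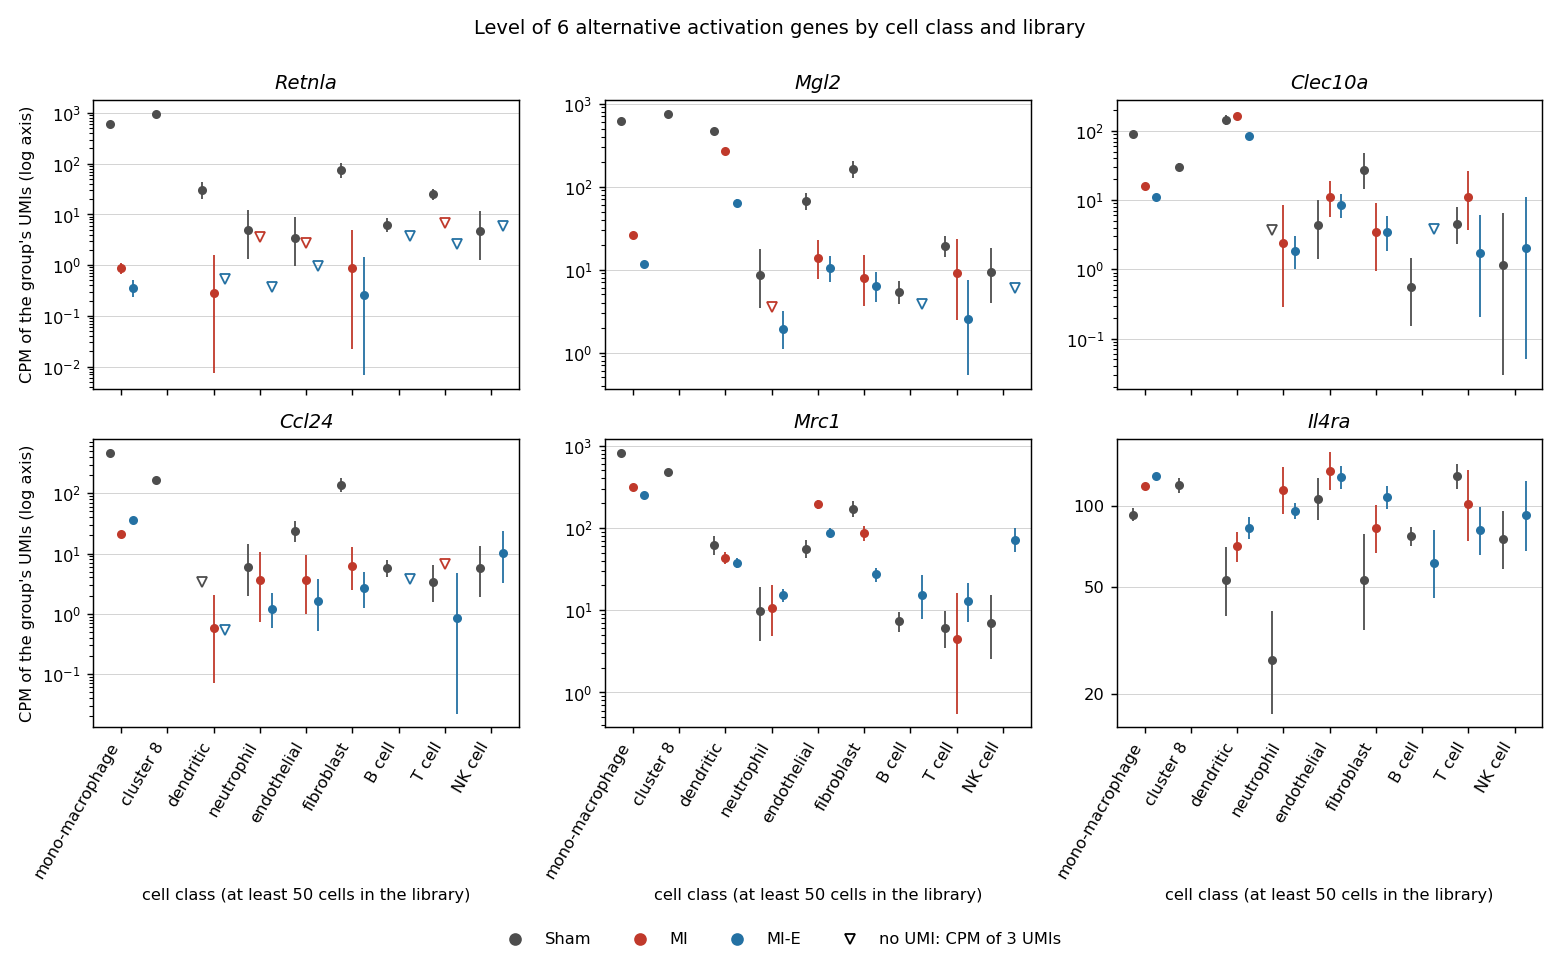
Level of each gene in CPM (logarithmic axis) by cell class with at least 50 cells, with 1 point per library, bars for the 95% counting interval and open triangles at 3 UMIs where none was counted. In monocyte-macrophage-like cells Retnla lies at 595 CPM in Sham against 0.866 in MI and 0.353 in MI-E, while Il4ra lies between 92.7 and 128 in the 3 libraries.

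Retnla, which encodes the secreted resistin-like molecule alpha, lies on chromosome 16 at positions 48842551 to 48844461 of the plus strand (GENCODE, GRCm38). Mgl2, which encodes a macrophage lectin for galactose and N-acetylgalactosamine, lies on chromosome 11 at positions 70130329 to 70137550 of the plus strand. Their upstream sequences are shown because these were the genes with the lowest ratios of MI and of MI-E to Sham. A match to the STAT6 motif, TTC followed by 4 bases of any kind and GAA, which reads the same on both strands, is in capitals.
Retnla, chr16:48842359-48842550: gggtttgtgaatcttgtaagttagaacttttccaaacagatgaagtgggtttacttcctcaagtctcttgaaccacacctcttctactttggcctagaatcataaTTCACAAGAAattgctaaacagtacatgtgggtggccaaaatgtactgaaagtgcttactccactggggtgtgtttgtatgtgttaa
Mgl2, chr11:70130107-70130328: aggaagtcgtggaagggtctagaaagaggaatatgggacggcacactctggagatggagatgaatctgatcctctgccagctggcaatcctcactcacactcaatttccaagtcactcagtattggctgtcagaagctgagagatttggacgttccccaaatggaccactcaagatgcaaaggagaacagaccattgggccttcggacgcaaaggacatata
Both are RefSeq sequences of GRCm38.p6 on the plus strand, ending at the base before the annotated gene start, and hold 192 and 222 bases. The Retnla window held 1 match, TTCACAAGAA, which starts 87 bases before the gene start. The Mgl2 window held 0 matches. The windows of Mrc1 and Il4ra also held 0, and those of Clec10a and Ccl24 were not analysed here. The Mrc1 and Il4ra windows hold 250 bases and run past the annotated gene starts. For Mrc1 the window ends at 14229413 and the gene starts at 14229392, and for Il4ra these are 125552270 and 125552120. Of 32851 upstream windows of 250 bases, longer than the 2 shown, 5.85% held the motif. A match or its absence describes these letters only.

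Il4ra, the receptor chain, was the gene of the 6 that was found in nearly every class. In monocyte-macrophage-like cells it was at 92.7 CPM in Sham (87.7 to 97.9), 119 in MI (116 to 121) and 128 in MI-E (126 to 131). The MI-to-Sham ratio was 1.28 (1.21 to 1.36) and that of MI-E to MI was 1.08 (1.05 to 1.11), both under the 1.5-fold rule. In Sham, 36.4% of Il4ra UMIs lay in this class, 15.4% in B-like cells and 9.70% in T-like cells. Type 2 innate lymphoid-like cells, 32 cells in Sham, had 218 CPM (145 to 315), and T-like cells of Sham 129 CPM (116 to 143). Endothelial-like cells had 106 and B-like cells 76.9. In this order of Sham classes the intervals of the first pair did not overlap, those of T-like and endothelial-like cells (88.1 to 127) did, and that of B-like cells (70.5 to 83.6) lay below both. The share of monocyte-macrophage-like cells with a UMI, after each cell was thinned to 1500 UMIs, was 12.2% in Sham, against 15.8% in MI and 16.5% in MI-E. Unthinned it was 33.2%, 63.3% and 60.9%, in cells of unequal depth.

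Neutrophil-like cells were the class in which Il4ra differed most between libraries. It was at 26.8 CPM in Sham (16.8 to 40.5, from 22 UMIs), 115 in MI (92.8 to 140) and 95.5 in MI-E (88.9 to 102). Relative to Sham, MI stood at a ratio of 4.28 (2.67 to 7.14). Thinned shares were 3.95%, 13.7% and 12.9%, at median depths of 1743, 1766 and 2111 UMIs. Sham and infarct neutrophil-like cells came from different clusters: cluster 17, led by Retnlg, Ngp and Camp, held 401 of the 425 Sham cells, and clusters 3 and 10 held most of those in MI and MI-E.

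Retnla lay in few cells, and nearly all of its counts came from Sham. It was at 595 CPM in monocyte-macrophage-like cells of Sham (583 to 608, from 8292 UMIs), 0.866 in MI (0.672 to 1.10, from 68) and 0.353 in MI-E (0.232 to 0.513, from 27). The Sham level was 688-fold that of MI (542 to 886). The share of cells with a UMI after thinning was 7.21% in Sham, against 0.0586% in MI and 0.0576% in MI-E, and 10.9%, 0.231% and 0.0996% unthinned. B-like cells of Sham, which should lack the gene, had a thinned share of 1.06% at a median of 2299.5 UMIs. In MI, 0 of 47 B-like and 0 of 73 T-like cells held a UMI. The upper limits of these shares, 7.55% and 4.93%, lie above both MI shares given for monocyte-macrophage-like cells. So few cells set no background for them. The MI value depends on which barcodes were called doublets. A single MI barcode with 22771 UMIs, called a doublet, held 219 Retnla UMIs, against 71 in all 8169 cells kept. With doublets kept the MI level was 0.00535 of that in Sham, not 0.00145, and over all deposited barcodes, without classes, it was 0.00748. The MI-E level was 0.407 of that in MI, and 0.102 with doublets kept.

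In Sham, 16973 UMIs of Retnla were counted, of which 47.7% lay in cluster 2, 43.3% in the unnamed cluster 8 and 6.68% in cluster 11. The levels were 679 CPM in cluster 2, 962 in cluster 8 and 965 in cluster 11. Most cells of these clusters held none of them. Of 2385 monocyte-macrophage-like cells, 259 carried Retnla and 20 of them held 50% of its counts. The 105 cells with at least 10 UMIs held 96.0%. In cluster 8, 95 of 1540 cells carried it, 6 cells held 50%, and the highest cell had 1204 Retnla UMIs among 19681, or 6.12% of its transcripts. The 1% of monocyte-macrophage-like cells of Sham with the most UMIs held 56.2% of Retnla, against 15.1% for Clec10a, 9.84% for Il4ra, 8.98% for Ccl24, 7.05% for Mgl2 and 5.64% for Mrc1. Counts in the other libraries lay in still fewer cells: 39 of the 71 MI UMIs were in 1 cell of cluster 2, and 17 of the 28 in MI-E were in 1 cell of cluster 14, which is led by the cell cycle genes Ube2c and Birc5.

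**Figure D2:**
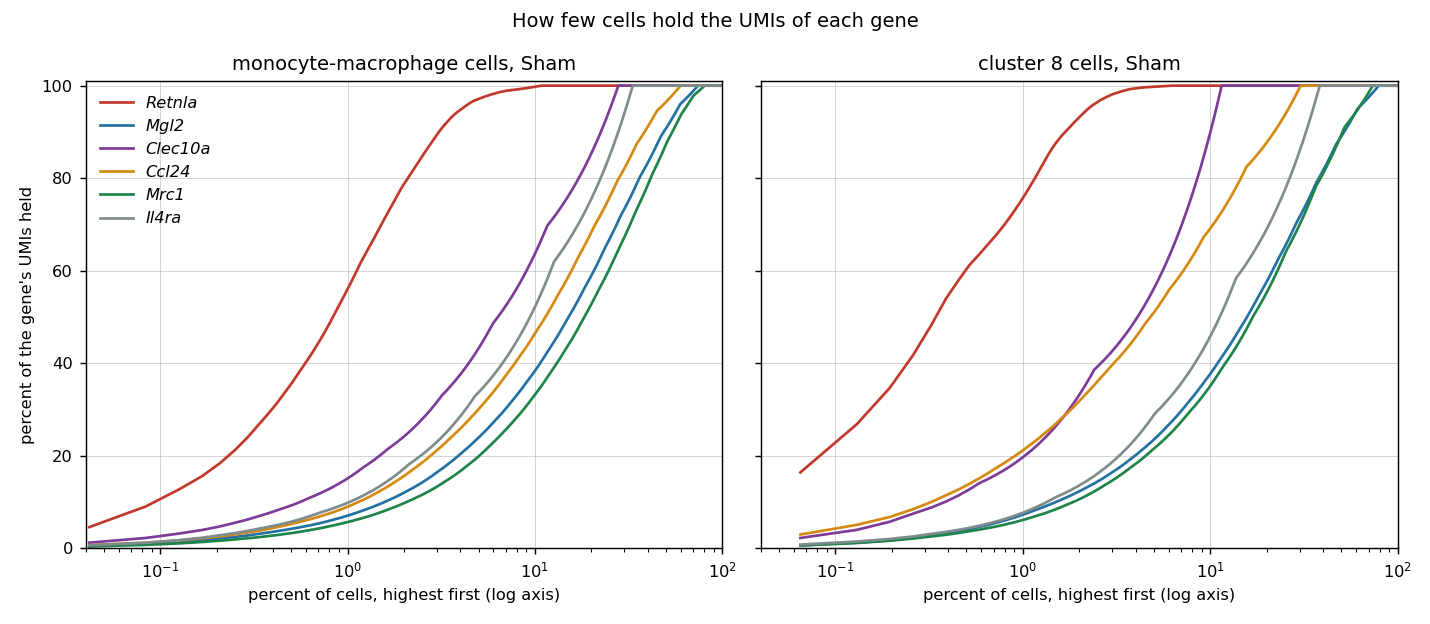
Cumulative percent of each gene's UMIs (vertical axis) held by the given percent of Sham cells, ordered from the most UMIs down (horizontal axis, logarithmic), for the monocyte-macrophage-like class at left and cluster 8 at right. At left the Retnla curve reaches 56.2% at the first 1% of cells, while the other genes lie between 5.64% and 15.1% there.

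The remaining genes were compared between Retnla-carrying cells and other cells of the class in Sham, since cells of 1 library are not replicates, as a description only. After thinning, Mgl2 was found in 59.0% of carriers and 48.2% of other cells, Clec10a in 17.2% and 9.56%, and Ccl24 in 45.7% and 36.0%. Mrc1 was found in 65.2% and 59.3%, and Il4ra in 15.2% and 11.8%. Carriers were also deeper before thinning, at a median of 6309 against 5305.5 UMIs. Cluster 2 held 250 of the 259 carriers, and within it Mrc1 was lower in them, at 855 against 955 CPM (ratio 0.896, 0.849 to 0.944) and in 67.2% against 68.6% after thinning. Mgl2 gave no single direction there: it was in 60.3% of carriers, 53.9% of cells with at least 10 Retnla UMIs and 56.0% of cells with none, at levels of 725, 746 and 708 CPM. Mgl2 in cluster 8 also differed by measure, since it was in 71.4% of cells with at least 10 Retnla UMIs and 54.0% of cells with none, at 691 and 743 CPM. Mrc1 in the same cells of cluster 8 was lower in level, at 225 against 496 CPM (ratio 0.455, 0.364 to 0.562). Ccl24 was too, at 105 against 168 CPM (ratio 0.623, 0.445 to 0.851). Their shares were 33.3% (19.6 to 49.5) against 47.0% (44.4 to 49.7) and 4.76% (0.582 to 16.2) against 15.6% (13.7 to 17.6). Only 42 of these Retnla-rich cells were left after thinning, and the share intervals overlapped for Mrc1, Ccl24 and Mgl2. These splits by cluster and by 10 UMIs were chosen after the data had been seen.

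Among the 10 genes highest in Retnla carriers relative to other monocyte-macrophage-like cells of Sham, several rested on single cells. All 99 Spata2l UMIs of the carriers lay in 1 cell, and 1 cell held 70.9% of Vps53 and 81.4% of Atr. Wdcp was seen in 13 of 259 carriers, and 1 cell held 50.4% of its UMIs. Without that cell Wdcp was still at 66.3 against 7.53 CPM. Lyz1, a lysozyme gene, was at 280 against 65.0 CPM and in 49 of 259 carriers, but 1 cell held 40.3% of its UMIs, and without that cell it was at 167 CPM. Genes spread over more carriers were Oasl1, an interferon-induced gene (163 against 62.8, in 109), and Rcn3 (97.2 against 40.3, in 97). Mmp12, a macrophage elastase, Cd209f, a lectin, and Ifnb1, interferon beta, completed the 10, with ratios of 4.40, 3.68 and 3.27. A higher cut, at least 10 Retnla UMIs in place of 1, was read for the 47 such cells of cluster 8. Fn1, fibronectin, was at 1114 CPM in them against 11.5 in cluster 8 cells without Retnla, and was seen in 31 of the 47. Ear2, an eosinophil-associated ribonuclease, was at 364 against 3.88 and seen in 27, and Cd2, an adhesion receptor, was at 189 against 2.01 and seen in 26. The immunoglobulin genes Igha, Jchain and Igkc ranked higher still in these cells but came almost wholly from 1 cell. At the same cut Fn1 also led in cluster 2, at 95.4 against 1.79 CPM, and was seen in 8 of 103 cells.

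Mgl2 was widespread in Sham macrophages, unlike Retnla. It was at 621 CPM in monocyte-macrophage-like cells of Sham (608 to 635), 25.7 in MI (24.6 to 26.9) and 11.7 in MI-E (10.9 to 12.5). Set against Sham, the MI ratio was 0.0414 (0.0394 to 0.0435), a 24.2-fold lower level, and that of MI-E to MI was 0.455 (0.420 to 0.492). Thinned shares of cells were 49.4%, 2.35% and 1.21%, against 0.879% of B-like Sham cells, and unthinned shares were 74.1%, 7.09% and 3.68%. The cells that carried it differed between libraries. In Sham, 53.9% of Mgl2 UMIs lay in cluster 2 and 36.1% in cluster 8. In MI, 29.8% lay in dendritic-like cells, 29.2% in the cycling cluster 14, 13.1% in cluster 7 and 11.5% in cluster 2. Cluster 14 had 76.7 CPM in MI and 80.9 in MI-E.

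Dendritic-like cells, a cluster led by Cd209a, carried Mgl2 and Clec10a in every library. Mgl2 was at 467 CPM in Sham (423 to 514), 267 in MI (250 to 285) and 63.9 in MI-E (57.4 to 70.9). The MI-to-Sham ratio was 0.572 (0.509 to 0.644), and that of MI-E to MI was 0.239 (0.211 to 0.271). Thinned shares of dendritic-like cells were, in the same order, 27.5%, 15.3% and 4.94%. Markers of other cells differed in this class too, and their part in these values was not tested: the 28 macrophage markers summed to 1770.4, 4645 and 7322 CPM and the 14 neutrophil markers to 907, 6197 and 4809, with 4 and 5 of them at 0 in Sham. By the 1.5-fold rule 2 of 5 measured genes of the 6 were lower and 0 higher in MI than in Sham dendritic-like cells, where 13.1% of all genes were lower and 29.6% higher. From MI to MI-E 2 of 4 were lower and 0 higher, against 5.35% and 9.28% of all genes. From Sham to MI-E 4 of 5 were lower and 1, Il4ra, higher, against 11.4% and 33.2%.

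Clec10a encodes the sister lectin of Mgl2, and the genes lie 18646 bases apart on chromosome 11. In monocyte-macrophage-like cells it was at 91.6 CPM in Sham (86.6 to 96.8), 16.2 in MI (15.3 to 17.1) and 11.2 in MI-E (10.44 to 11.95). Relative to Sham, MI stood at a ratio of 0.177 (0.164 to 0.191). Dendritic-like cells had 145 CPM in Sham (121 to 173), 165 in MI (152 to 179) and 83.7 in MI-E (76.2 to 91.6), so Sham and MI overlapped there and MI-E was lower than both. Their MI level was 1.14 times that of Sham (0.937 to 1.39), and 1.80 times with cells of at most 5% mitochondrial UMIs. Dendritic-like cells held 7.28% of Clec10a UMIs in Sham, but 30.3% in MI and 33.6% in MI-E. Over the longest open reading frames of the annotation, Mgl2 and Clec10a were 91.0% identical across 925 aligned bases. Of 2205 windows of 50 bases in Mgl2 transcripts, 270 were found unchanged in Clec10a. Reads from such stretches could be assigned to either gene or dropped, so the values of this pair are uncertain to that extent.

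Mrc1, the mannose receptor known as CD206, had the smallest reduction of the 5 lower genes. It was at 824 CPM in monocyte-macrophage-like cells of Sham (809 to 839), 311 in MI (307 to 315) and 253 in MI-E (249 to 256). Set against Sham, the MI ratio was 0.378 (0.369 to 0.386) and that of MI-E to MI was 0.812 (0.796 to 0.827). Thinned shares were 59.9%, 29.3% and 20.7%, against 0.989% of B-like Sham cells. The class difference did not hold within cluster 2, where Mrc1 was at 938 CPM in Sham, but 1542 in MI and 1367 in MI-E. Endothelial-like cells differed from Sham in the opposite direction from the class of macrophages, with 55.7 CPM in Sham (42.9 to 71.1), 193 in MI (168 to 221) and 87.8 in MI-E (77.7 to 98.9). The 28 macrophage markers summed to 6637, 25146 and 16422 CPM in these cells, and their part in the Mrc1 values was not tested.

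Ccl24, an eotaxin that draws eosinophils through the receptor CCR3, was the gene of the 6 that passed the 1.5-fold rule upward from MI to MI-E. In monocyte-macrophage-like cells it was at 472 CPM in Sham (461 to 484), 20.8 in MI (19.8 to 21.9) and 35.3 in MI-E (34.0 to 36.7). The MI-to-Sham ratio was 0.0441 (0.0418 to 0.0466) and that of MI-E to MI was 1.70 (1.59 to 1.80). Thinned shares of cells were 37.1%, 2.08% and 2.36%. The place of its transcripts differed between libraries: 76.5% lay in cluster 2 in Sham, while in MI 29.3% lay in cluster 0 and 25.3% in cluster 21. In MI-E 56.1% lay in cluster 0 and 23.0% in cluster 9. Cluster 21, led by Alox15 and Saa3, had 322 CPM in MI and 222 cells there against 25 in MI-E. Single cells reached 209 UMIs in MI and 190 in MI-E, above the highest Sham cell at 41. Without the 1% of cells richest in it, the ratio of MI-E to MI no longer passed 1.5, at 1.43. Dendritic-like cells held 2 Ccl24 UMIs in MI and 0 in Sham and MI-E.

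Between MI and MI-E, 1 gene of the 5 measured, Ccl24, was at least 1.5-fold higher in MI-E and 1, Mgl2, at least 1.5-fold lower. Over all 8088 measured genes 4.4% were higher and 5.24% lower. Retnla was under 5 CPM in both libraries and was not measured by that rule. MI-E and MI are each set against the same Sham library, so their ratios to it share its counting error. Against Sham, the MI-E ratios were 0.000592 for Retnla, 0.0188 for Mgl2, 0.122 for Clec10a, 0.0748 for Ccl24, 0.307 for Mrc1 and 1.39 for Il4ra. The count was again 5 lower and 0 higher of 6, where 22.9% of 8483 genes were lower and 21.5% higher. Scaling by TMM factors in place of class totals raised every ratio to Sham by 1.20-fold for MI and 1.21-fold for MI-E. No direction changed with it, and Il4ra then passed the 1.5-fold rule in MI.

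Because the class is made of different clusters in each library, cluster 2 was read apart. It was the macrophage cluster with at least 50 cells in all 3 libraries and held 85.6% of the class in Sham. It held 2041 Sham, 132 MI and 65 MI-E cells. Retnla there was at 679, 54.0 and 12.2 CPM in Sham, MI and MI-E, with 59 UMIs in MI and 7 in MI-E. Relative to Sham, MI stood at a ratio of 0.0795 (0.0604 to 0.103). As 1 MI cell held 39 of the 59 UMIs, the ratio was 0.0284 (0.0173 to 0.0439) without the richest cell of each library, and for the class it was then 0.000649 in place of 0.00145. This setting was added after the data had been seen. Mgl2 was at 710, 328 and 280 CPM, with a ratio of MI to Sham of 0.461 (0.414 to 0.513), and Ccl24 at 542, 112 and 62.6, with a ratio of 0.206 (0.171 to 0.246). So the levels of Retnla, Mgl2 and Ccl24 were lower than in Sham within the cluster too, by less than in the class. Thinned Retnla shares there were 8.06% in Sham (6.90 to 9.34), 2.31% in MI (0.478 to 6.60) and 4.62% in MI-E (0.962 to 12.9). The shares of MI and MI-E each rest on 3 cells, and the MI-E interval overlapped that of Sham. Clec10a was at 104, 152 and 110 CPM, and Il4ra at 97.3, 187 and 320. Il4ra, Clec10a and Mrc1 therefore lay higher in MI than in Sham inside cluster 2, with ratios of 1.92 (1.65 to 2.23), 1.46 (1.23 to 1.71) and 1.64 (1.56 to 1.73).

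**Figure D3:**
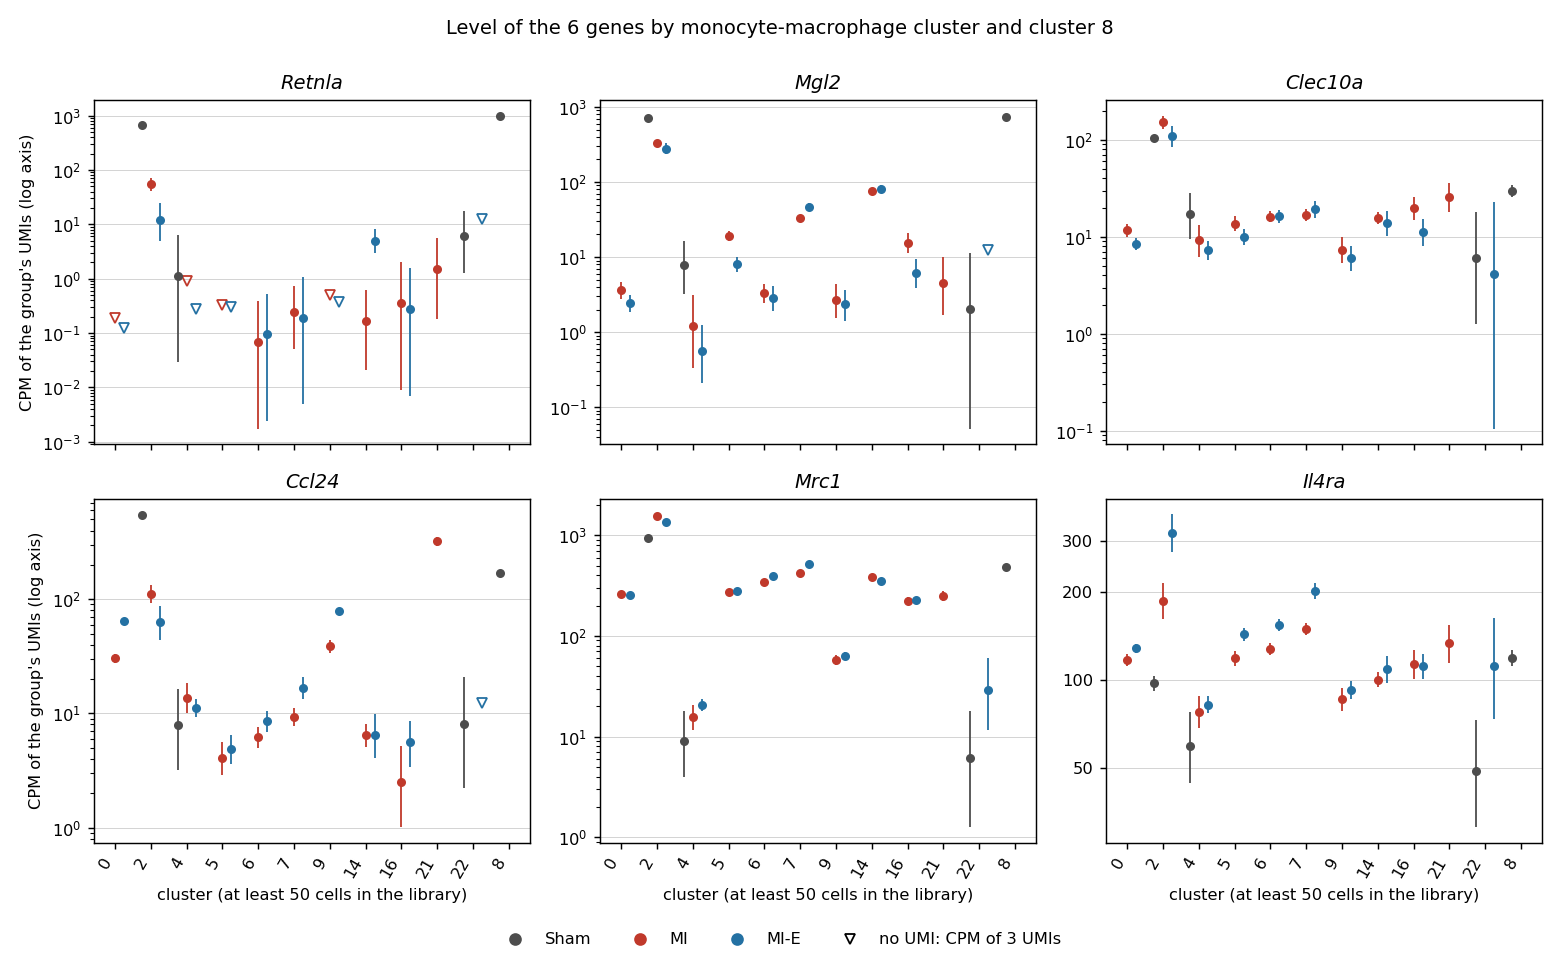
Level of each gene in CPM (logarithmic axis) for each monocyte-macrophage-like cluster and for cluster 8, with 1 point per library that held at least 50 cells, bars for the 95% counting interval and open triangles at 3 UMIs where none was counted. In cluster 2 Mrc1 lies at 938 CPM in Sham, but 1542 in MI and 1367 in MI-E, while Retnla lies at 679, 54.0 and 12.2.

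Adding cluster 8 to the class left the order of the libraries as it was. The Sham level of Retnla rose to 725 CPM, and the ratio of MI to Sham became 0.00121 for Retnla, 0.0410 for Mgl2, 0.233 for Clec10a, 0.0571 for Ccl24, 0.444 for Mrc1 and 1.16 for Il4ra. Cluster 8 in Sham had 741 CPM of Mgl2, 29.8 of Clec10a, 169 of Ccl24, 484 of Mrc1 and 119 of Il4ra, which set it apart from cluster 2 by low Clec10a and Ccl24. Against Sham, 5 of the 6 were again lower by the 1.5-fold rule and 0 higher in each comparison, where 18.5% of genes were lower and 24.8% higher for MI, and 19.4% and 25.4% for MI-E. For MI-E over MI it was again 1 higher and 1 lower of 5, against 4.41% and 5.24%. This addition was chosen after the data had been seen.

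In classes not described so far, some values of Sham rested on few cells. Of the 35 Retnla UMIs in fibroblast-like cells of Sham, 34 were in 1 cell, and of 67 in T-like cells, 54 were in 1 cell. Erythroid-like cells of Sham, 98 cells with a median of 821.5 UMIs, had 365 CPM of Mgl2 and 292 of Mrc1. Markers of other cell types were also present in the monocyte-macrophage-like class, and their part in these values was not tested. All 14 neutrophil markers were detected in each library, with a summed level of 11237 CPM in Sham, against 15395 in MI and 18717 in MI-E. The 12 B cell markers summed to 369, 24.6 and 46.1 CPM, and the 14 markers of type 2 dendritic cells to 147, 176 and 318.

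Over 24 clusters with at least 50 cells, with the 3 libraries summed, the genes most like Retnla in log2 CPM were Chp2 (Pearson's r = 0.854), 1500002C15Rik (0.833), Fxyd2 (0.829), Gpr34 (0.815) and mt-Nd4l (0.803). The genes most like Mgl2 were Timd4 (0.904), a receptor for dying cells carried by resident macrophages, Xlr (0.894), Gpr34 (0.891), Fxyd2 (0.867) and Slco2b1 (0.848). Chp2, Fxyd2, Gpr34, Timd4, Xlr and Slco2b1 were highest in cluster 2. The 2 genes followed each other with r = 0.798, and Mgl2 followed Clec10a with r = 0.743. Il4ra followed neither, at 0.0418 with Retnla and 0.144 with Mgl2. These clusters share libraries and depth, and the values are descriptions.

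Relatives of the members were read in the same classes. Retnlg was 84.2% identical to Retnla over the open reading frame and lay 28159 bases away. In neutrophil-like cells it was at 3491, 679 and 764 CPM for Sham, MI and MI-E. This order did not hold within cluster 17, which Retnlg leads, with 3599, 3624 and 9795 CPM from 401, 25 and 66 cells. There 1 MI-E cell held 465 of 1393 Retnlg UMIs and 1 MI cell held 58 of 154. Cluster 3 had 1411, 1096 and 881 CPM from 21, 132 and 1759 cells. Cluster 10 had 32.6 CPM for MI and 15.9 for MI-E. In monocyte-macrophage-like cells Retnlg was at 2.44, 9.48 and 8.59 CPM. None of 550 windows of 50 bases in Retnla (0) was found unchanged in Retnlg, Retnlb or Retn. Retn, resistin, was at 14.4, 1.29 and 0.483 CPM, with 191 of its 200 Sham UMIs in 1 cell, and Retnlb had 0 UMIs in the class. Among other chemokines that bind CCR3, Ccl7 was lower in both than in Sham, at 1915, 1404 and 1416 CPM. Ccl8, at 109, 554 and 477, and Ccl5, at 20.3, 88.4 and 76.2, were higher in both. Ccl11 was at or under 0.574 CPM and Ccl26 at 0. Ccr3, their receptor, was at 2.43 CPM in neutrophil-like cells of Sham, 27.4 in MI and 19.6 in MI-E. The Sham value is under the floor of 3 UMIs, which is 3.65 CPM there. Ccr3 is among the 6 eosinophil markers, which summed to 17.0, 134 and 120 CPM in these cells, and the part of eosinophils was not tested. The lectins Mrc2, Pla2r1 and Ly75, relatives of Mrc1, were each under 0.4 CPM in the class.

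Transcripts of the ligands were scarce. Il4 had 31, 10 and 15 UMIs in all kept cells of Sham, MI and MI-E, and Il13 had 72, 37 and 16, of which 52 in Sham were in 8 type 2 innate lymphoid-like cells. Most of the other counts lay in single cells of cluster 11 or in cluster 2. In cluster 11, 1 MI cell held 35 Il13 UMIs, 1 MI cell held 8 Il4 UMIs and 1 MI-E cell held 12 Il4 UMIs. Cluster 2 held 22 of the Sham Il4 UMIs, 10 of them in 1 cell. In monocyte-macrophage-like cells Stat6 was at 38.8, 42.3 and 47.7 CPM, Il13ra1, the partner chain of Il4ra for interleukin 13, at 34.0, 22.2 and 32.3, and Il2rg, the common cytokine receptor chain, at 23.6, 50.7 and 68.9. Arg1, which encodes arginase and is the best known marker of alternative activation in the mouse, was the reverse of Retnla. It had 3 UMIs in Sham (0.215 CPM), 497 CPM in MI and 612 in MI-E. Chil3, a chitinase-like protein, was at 194, 330 and 1060.3 CPM.

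The list of genes of this pathway, without the members other than Il4ra, held 54 symbols, of which 52 matched and 38 were measured. In MI against Sham 14 were at least 1.5-fold higher and 15 lower, where 21.2% and 21.7% of all measured genes were, with a median log2 ratio of 0.11 against 0.03 over all measured genes. Of 15 measured targets 9 were higher and 4 lower, of 14 receptor and signalling genes 4 and 5, and of 9 regulators 1 and 6. The highest ratios were those of Arg1, Tgm2, a transglutaminase (246 against 22.3 CPM, ratio 11.1), and Fn1 (573 against 57.9, ratio 9.89). The lowest were Cd163, a haemoglobin scavenger receptor (286 CPM in Sham, ratio 0.0699), and the transcription factors Irf4 (1.60 against 14.1, ratio 0.113) and Egr2 (13.1 against 75.7, ratio 0.173). From MI to MI-E 5 were higher and 2 lower of 38, where 4.4% and 5.24% of all measured genes were, with a median of 0.24 against 0.02. Chil3 (ratio 3.21), Il1rn, the interleukin 1 receptor antagonist (1.85), and Cish, a STAT-induced signalling inhibitor (1.82), were highest. Mmp12 (0.527), Cd163 (0.580) and Atp6v0d2, a proton pump subunit (0.681), were lowest. All these ratios are of class sums, and the clusters that make up the class differ between libraries. The monocyte-like cluster 4 was 5.66% of the class in MI and 18.9% in MI-E. Cluster 2, with Cd163 among its leading genes, was 85.6% in Sham and 1.91% in MI. Cluster 7, with Mmp12 among its leading genes, was 16.5% in MI and 7.06% in MI-E. The part of this make-up in the ratios was not tested. The list was written with earlier results of these data known.

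**Figure D4:**
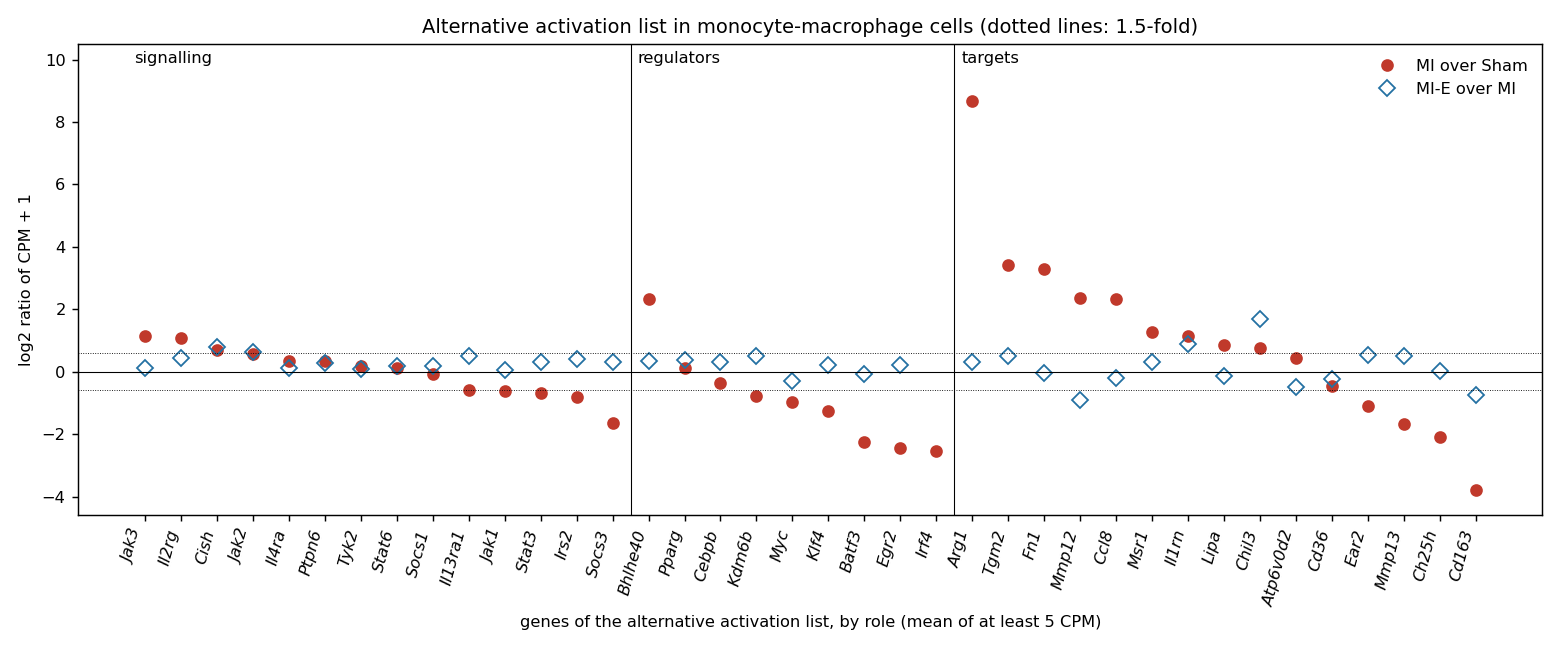
Log2 ratio of CPM + 1 in monocyte-macrophage-like cells for each measured gene of the pathway list, by role, with filled circles for MI over Sham, open diamonds for MI-E over MI and dotted lines at 1.5-fold. For MI over Sham 9 of 15 targets lie above the upper line and 6 of 9 regulators below the lower line, while for MI-E over MI most genes lie between the lines.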

How the data were processed

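The deposited files hold whole-number UMI counts per gene and barcode, which the authors made with Cell Ranger 5.0.1 and build mm10, as the submitters' processing notes state. Sham held 41140109 UMIs in all, MI 98814001 and MI-E 104562768. Barcodes were dropped under 200 genes or over 10% mitochondrial UMIs. Scrublet in scanpy 1.11.5 marked doublets, at an expected rate of 0.8% per 1000 barcodes in Sham and MI, where its automatic threshold marked 0% and 0.011%, and at the automatic threshold in MI-E. For clustering, each cell was scaled to 10000 and logged. From 2000 variable genes without the members and their pathway, 30 components and 15 neighbours gave Leiden clusters at resolution 1, which were named from 22 marker lists.

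CPM are sums over a class divided by its total. Log2 ratios use CPM + 1. Intervals are exact Poisson or Clopper-Pearson at 95%. They and the floor of 3 counts cover counting error only. Shares were also read after thinning cells to 1500 UMIs, which left out shallower cells. The ratio and its interval were also run on Poisson counts drawn with known ratios. Those counts hold no spread between cells or libraries, so they cannot show how the interval fares where such spread exists. Paralogs were compared over GENCODE transcripts with Biopython 1.88. TMM factors came from edgeR 4.0.16.

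The 6 members, the gene lists and the marker lists were chosen with earlier results of these data known. Named are the members, the listed paralogs and the listed ligands, receptors and targets. From the pathway list the 3 highest and 3 lowest ratios are named. For likeness it is the 5 highest correlations among genes with at least 50 CPM in a cluster, and for Retnla carriers the 10 highest ratios among genes with at least 50 CPM. Proteins were not used here.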

Additional observations from a re-analysis of the deposited data

Results flagged for a closer look

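Mrc1 and Il4ra differed from Sham in opposite directions in different cell classes. Whether the classes differ was not tested, since each library is the only one of its group, and values cover counting error only. For MI over Sham, the Mrc1 ratio was 3.47 in endothelial-like cells, against 0.506 in fibroblast-like and 0.378 in monocyte-macrophage-like cells. For MI-E over Sham, the Mrc1 ratio was 10.4 in NK-like cells (from 36 and 6 UMIs), 2.09 in B-like cells (from 12 and 52 UMIs) and 1.58 in endothelial-like cells. It was 0.608 in dendritic-like cells, 0.307 in monocyte-macrophage-like cells and 0.160 in fibroblast-like cells. In the 86 NK-like cells of MI-E, 1 cell held 12 of the 36 Mrc1 UMIs. The 28 macrophage markers differed in the same classes: from Sham to MI-E they summed to 1171 and 16907 CPM in NK-like, 1459 and 3890.4 in B-like, 6637 and 16422 in endothelial-like, 1770.4 and 7322 in dendritic-like and 14179.6 and 8816 in fibroblast-like cells. Their part in the Mrc1 ratios was not tested.

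Il4ra, for MI-E over Sham, had ratios of 3.57 in neutrophil-like, 2.02 in fibroblast-like and 1.56 in dendritic-like cells, and of 0.629 in T-like cells. The T-like ratio rests on 95 UMIs in MI-E and 344 in Sham.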

How the results depend on the processing

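Each ratio in monocyte-macrophage-like cells was recomputed under 13 alternatives, of which the addition of cluster 8 and the removal of the richest cell were chosen after the data had been seen. Of 234 log2 ratios so obtained, 85 stayed within counting error of the first value. Weighting clusters equally changed the sign of 4: Mrc1 was then at 0.72 for MI and 1.24 for MI-E, both over Sham, and the ratio of MI-E to MI was 0.078 for Mrc1 and 0.021 for Retnla. In dendritic-like cells 55 of 72 stayed within counting error, and 2 changed sign, both for Ccl24 with 2 UMIs in MI and 0 in Sham. That setting compares 2 clusters for MI over Sham, 9 for MI-E over MI and 3 for MI-E over Sham. The Retnla log2 ratio of MI to Sham, -8.32, was -2.36 with it. The 2 clusters compared there were clusters 2 and 4. Cluster 4 held 1 Retnla UMI in Sham and 0 in MI, so its part is largely set by the added 1 CPM. In cluster 2 alone the ratio was 0.0795, and 0.0284 without the richest cell of each library. The log2 ratio for the class was -7.21 with doublets kept, -8.56 at 5% mitochondrial UMIs, -7.97 with libraries clustered alone and -8.13 at resolution 2. It was -8.62 or -8.60 with all unnamed macrophage-scoring clusters or cluster 8 added. It was -6.67 over all barcodes, -5.80 with a pseudocount of 10, -8.10 with TMM and -8.70 without the richest cell. Without the top 1% of cells no MI UMI was left (0), so the -8.06 then found is set by the added 1 CPM; against a floor of 3 UMIs in MI the Sham level was at least 6868-fold higher. For Mgl2, at -4.54, these were -1.56 within clusters, -4.41 with doublets kept, -4.29 clustered alone, -3.48 over all barcodes, -4.14 with the pseudocount of 10, -4.28 with TMM and -5.50 without the top 1%. The Retnla ratio of MI-E to MI was 0.102 in place of 0.407 with doublets kept. The causes were not tested.

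Members past 1.5-fold against Sham became, for MI and MI-E alike, 1 higher with TMM, and 2 higher and 3 lower within clusters. For MI-E over MI, 0 were higher over all barcodes, without the top 1% and within clusters. Lower were 2 with doublets kept or over all barcodes, and 0 within clusters. Unthinned Retnla shares were 10.9% in Sham and 0.231% in MI. List genes for MI-E over MI were 10 higher and 5 lower with no filter, 3 and 1 at 20 CPM, and 1 and 0 at 2-fold. Dendritic-like cells were not formed in all 3 libraries with doublets kept or with libraries clustered alone. No paired analysis was possible because each group has 1 library, and none could be left out. Retnla rests on 68 UMIs in MI and 27 in MI-E, which limits its ratio there.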
